A study of Mus musculus with 6 samples.

Results

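The 10 genes described here were chosen by name: 6 encode proteins of elastic fibres (Eln, Fbn1, Fbn2, Fbln5, Efemp2 and Mfap5) and 4 encode lysyl oxidases (Lox, Loxl1, Loxl2 and Loxl3). They are 10 of the 54146 Ensembl genes counted, and 7 of them passed the low-count filter that left 13120 genes for testing. Total RNA was sequenced from the mouse embryo fibroblast line NIH/3T3, which grows without limit in culture, as KO clone 1 and KO clone 2, both Mki67-/-, and as wild-type (WT) cells. Each of the 3 groups had 2 libraries, and all cells grew in the same serum-containing medium. Each knockout group is 1 clone, so a trait of a clone and an effect of the lost gene cannot be told apart within it. The labels do not say whether replicates were separate cultures, so p-values measure the spread between these libraries, which may be technical. The labels' protocol text names 4T1, a mouse mammary tumour line, where titles, source and tissue fields name NIH/3T3 fibroblasts.

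Elastic fibres are laid down on microfibrils, whose backbone is fibrillin (Fbn1, Fbn2) bound by the glycoprotein encoded by Mfap5. Tropoelastin, the product of Eln, is brought to this scaffold by fibulin-5 (Fbln5) and fibulin-4 (Efemp2), and lysyl oxidases then cross-link it. The lysyl oxidases are copper enzymes that oxidise lysines of elastin and collagen, and fibulin-4 is known to bind the Lox precursor. Fibroblasts and smooth muscle cells are the usual makers of these fibres.

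Gene counts summed to between 15087148 and 19678782 in the 4 knockout libraries, and to 3873249 and 11377172 in WT replicates 1 and 2. Levels are given in CPM, the count of a gene scaled to the library's summed gene counts. Mki67, the gene of the Ki-67 proliferation antigen, was at 4.27 and 4.71 CPM in clone 1, with 4.41 and 7.82 CPM in clone 2, against 46.7 and 53.8 CPM in WT. Of the 10 fibroblast markers, Lum had no count in any library, and the list summed to 6949 to 7282 CPM in clone 1, 7831 to 7839 CPM in clone 2 and 8539 to 9993 CPM in WT. In the knockout mean 1 of the 9 fibroblast markers tested rose and 5 fell, where 16.6% of all genes tested were called higher and 18.2% lower. The one that rose was Col1a1 (log2 fold change 0.75). Among those that fell, Col3a1 was at −1.90, and Dcn had 95 counts in WT, 0 in clone 1 and 2 in clone 2. The 6 smooth muscle markers summed to 1109 to 1147 CPM in clone 1, 175.9 to 188 CPM in clone 2 and 830 to 1029 CPM in WT. All 4 of them that were tested were called in the knockout mean, 1 higher and 3 lower, beside the same shares of all genes. The clones differed here. In clone 1, 2 were higher, 1 lower and 1 not called, where 15.2% of all genes were higher and 16.5% lower. In clone 2, 1 was higher and 3 lower, where 12.9% of all genes were higher and 14.5% lower. Actg2 was called higher in clone 1 (log2 fold change 0.89) and lower in clone 2 (−1.89). The defining epithelial marker Epcam was at 0 in all 6 libraries, and the 6 epithelial markers summed to at most 2.08 CPM. Marker lists of other cell types were low but differed with genotype. The 4 macrophage markers summed to 31.6 to 36.1 CPM in the knockout libraries, against 19.0 to 23.8 CPM in WT. Of the 2 tested by edgeR, Csf1r rose (log2 fold change 2.17, adjusted p = 3.62e-06) and Cd68 was not called (−0.23, adjusted p = 0.288). Ptprc had 5 counts in WT and 0 in both clones, and Adgre1 had 0 in every library. The 4 endothelial markers summed to 1.29 to 1.77 CPM in the knockout libraries, against 3.87 to 4.39 CPM in WT, and Cdh5, the 1 tested, fell (−1.82, adjusted p = 2.08e-04). The 4 cartilage markers summed to 10.8 to 13.5 CPM in the knockout libraries, against 17.4 to 19.4 CPM in WT, and both that were tested fell, with log2 fold changes of −2.39 for Col2a1 and −0.56 for Sox9 (adjusted p = 0.00163 and 0.0156).

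Transcripts of Lox, Loxl1, Loxl3, Fbln5 and Efemp2 were the most abundant of the 10, those of Mfap5 and Fbn1 were lower, and those of Eln, Fbn2 and Loxl2 were at or near 0. Levels of different genes are compared per kilobase of annotated exon. In WT, Loxl1 stood highest at 118 ± 0.713 CPM per kb and Efemp2 next at 94.9 ± 1.34 CPM per kb (SD, n = 2). Lox (41.7 ± 13.7), Fbln5 (34.0 ± 4.29) and Loxl3 (30.6 ± 0.693 CPM per kb) followed, and the ranges of neighbours in this trio overlapped. Mfap5 was at 4.98 ± 0.434 and Fbn1 at 2.86 ± 0.854 CPM per kb in WT, apart from each other and from the trio. In both knockout clones Efemp2 stood first instead, at 144 ± 2.17 CPM per kb in clone 1 and 131 ± 11.6 in clone 2. Loxl1 came next in the knockouts, at 71.7 ± 3.01 and 81.7 ± 7.69 CPM per kb in clones 1 and 2, and its range overlapped that of Lox, at 65.3 ± 17.96 and 76.5 ± 0.579 CPM per kb. Loxl3, Fbln5, Mfap5 and Fbn1 followed in that order in both clones, each range apart from the next.

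**Figure D1:**
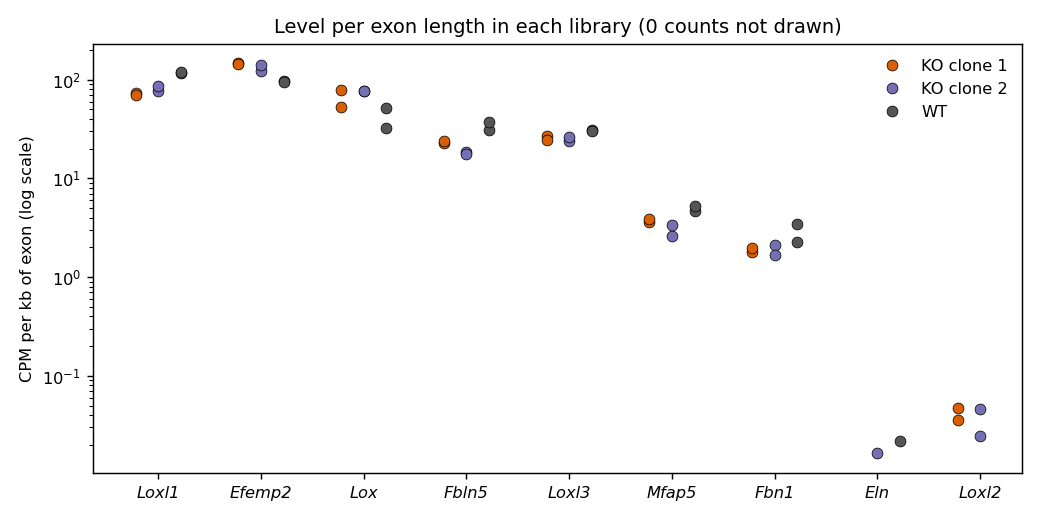
Level of each member in each library, in CPM per kb of annotated exon on a log scale, with KO clone 1, KO clone 2 and WT from left to right within each gene; genes are ordered by their WT mean and libraries with 0 counts are not drawn. Efemp2 lies above Loxl1 in the 4 knockout libraries and below it in the 2 WT libraries, and Eln and Loxl2 lie far below the other members.

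The 3 members that did not pass the filter were at or near the limit of detection. Eln, which encodes tropoelastin (ENSMUSG00000029675, chromosome 5, 134702593 to 134747323, minus strand, GRCm38), had 4 counts in the 6 libraries, 2 of them in clone 2 replicate 2 and 2 in WT replicate 2. Fbn2, the fibrillin-2 gene of early microfibrils (ENSMUSG00000024598, chromosome 18, 58008623 to 58210487, minus strand), had 0 of 81370317 counts, which allows a level of up to 0.0369 CPM. Elastin and fibrillin-2 transcripts were thus at or near 0, and a change of either was not detectable at this depth. Loxl2, a lysyl oxidase with scavenger receptor domains (ENSMUSG00000034205, chromosome 14, 69609068 to 69695834, plus strand), had 5 and 3 counts in clone 1, 4 and 2 counts in clone 2, and 0 counts in both WT libraries. Pooled, that is 0.212 CPM in the knockout libraries (exact 95% Poisson interval 0.116 to 0.355 CPM, counting error only), and the 0 counts in WT allow up to 0.197 CPM. The WT limit lies inside the knockout interval, so a difference in Loxl2 was not detectable at this depth.

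In the comparison of knockout with WT, which asks what differs in cells without Ki-67, all 7 members tested were called in the mean of both clones. Efemp2 and Lox rose, and Fbn1, Fbln5, Mfap5, Loxl1 and Loxl3 fell. Changes were moderate, from a log2 fold change of −0.81 for Fbln5 to 0.67 for Lox. Calls rest on edgeR's quasi-likelihood test with Benjamini-Hochberg adjustment and a threshold of 0.05, and 34.8% of all 13120 genes tested met that rule, 16.6% higher and 18.2% lower. The balance of directions over all genes turned with the scaling and with 1 library: 2176 genes were higher and 2385 lower here, but 2602 higher and 1949 lower when libraries were scaled by their totals, and 2445 higher and 2004 lower without WT replicate 2. None of the 7 members tested changed direction in either. In CPM scaled to library totals, the 4 knockout libraries lay entirely on one side of the 2 WT libraries for all 7. The same held for 50.7% of all genes tested, 30.2% above WT and 20.5% below. For Lox the gap was narrow, with 251 CPM in clone 1 replicate 1 and 246 CPM in WT replicate 2. The TMM scaling used for the tests, with factors of 1.01 and 0.976 for these libraries, would close it. The median log2 fold change was −0.67 over the 7 members and 0.005 over all genes. In these bulk libraries, fewer cells that make a transcript and less of it per cell cannot be told apart. The fibroblast, smooth muscle, endothelial and cartilage markers also moved, as did Csf1r among the macrophage markers, as given above. The part of these markers in the members' changes was not tested.

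**Figure D2:**
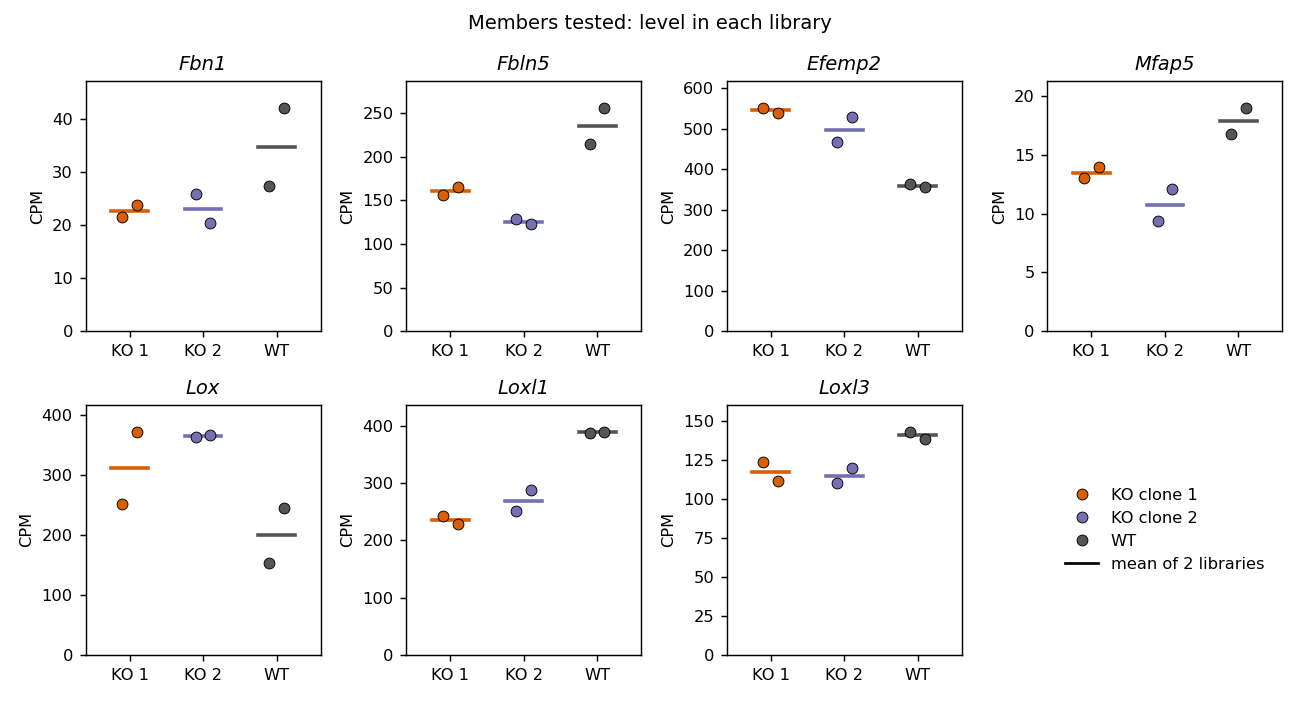
Level in CPM of the 7 members tested, in KO clone 1 (KO 1), KO clone 2 (KO 2) and WT from left to right; each point is 1 library and each bar the mean of 2. The 4 knockout points lie above both WT points for Efemp2 and Lox, and below them for Fbn1, Fbln5, Mfap5, Loxl1 and Loxl3.

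Both fibulin genes and the fibrillin-1 gene have an entry among the RefSeq promoter sequences of build GRCm38.p6, as 3 of the 10 members do. They are shown because these genes moved in opposite directions: Fbn1 and Fbln5 fell and Efemp2 rose. Fbn1 had 1 listed start, Fbln5 had 2 and Efemp2 had 3, and the one nearest the outermost GENCODE start was used. Each line gives the 250 bases before the start used, 5′ to 3′ on the gene's strand. The windows lie at chr2:125506439-125506688 (minus strand) for Fbn1, chr12:101819120-101819369 (minus strand) for Fbln5 and chr19:5473696-5473945 (plus strand) for Efemp2. Capitals mark the letters of 5 motifs searched on both strands: the TATA box TATAAA, the CCAAT box, the GC box GGGCGG, the AP-1 motif TGANTCA and the TEAD motif GGAATG.
Fbn1: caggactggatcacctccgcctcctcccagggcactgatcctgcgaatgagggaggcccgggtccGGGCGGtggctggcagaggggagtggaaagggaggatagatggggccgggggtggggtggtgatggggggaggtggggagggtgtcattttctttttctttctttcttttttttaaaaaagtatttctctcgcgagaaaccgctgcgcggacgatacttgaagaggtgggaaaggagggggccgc
Fbln5: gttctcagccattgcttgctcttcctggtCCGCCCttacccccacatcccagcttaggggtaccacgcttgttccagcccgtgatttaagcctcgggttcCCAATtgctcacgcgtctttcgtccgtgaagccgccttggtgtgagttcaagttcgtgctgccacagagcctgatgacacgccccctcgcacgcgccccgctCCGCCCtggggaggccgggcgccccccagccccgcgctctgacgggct
Efemp2: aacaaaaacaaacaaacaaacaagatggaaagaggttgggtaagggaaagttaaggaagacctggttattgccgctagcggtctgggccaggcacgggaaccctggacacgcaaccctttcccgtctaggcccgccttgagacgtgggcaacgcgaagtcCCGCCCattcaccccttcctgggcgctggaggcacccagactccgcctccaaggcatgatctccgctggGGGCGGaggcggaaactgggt
All 3 windows were richer in GC than the median of 52.4% over 32851 promoter windows of this length, at 59.2% for Fbn1, 65.2% for Fbln5 and 59.2% for Efemp2. They held 13, 21 and 15 CpG pairs in that order of genes, against a median of 6. The GC box letters were found once in Fbn1 and 2 times each in Fbln5 and Efemp2, and 32.7% of all windows hold them. The CCAAT letters were found once, in Fbln5, and 33.8% of all windows hold them; no 2 matches overlapped. The TATA box, AP-1 and TEAD letters were in none of the 3 windows, and 12.4%, 6.75% and 12.6% of all windows hold them. In the windows shown, the gene that rose and the 2 that fell therefore shared the GC box letters. For Fbn1 the start used lies 1555 bases from the outermost GENCODE start, and for Fbln5 and Efemp2 64 and 8 bases.

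Of the microfibril genes, Fbn1 and Mfap5 fell in the knockout mean and Fbn2 was not measurable. Fbn1, which encodes the fibrillin that forms the microfibril backbone (ENSMUSG00000027204, chromosome 2, 125300594 to 125507993, minus strand), was at 21.5 and 23.8 CPM in clone 1, with 25.7 and 20.4 CPM in clone 2, against 27.4 and 42.0 CPM in WT. The WT libraries differed from each other by 1.54-fold, and the lower of them was close to the highest knockout library. The log2 fold change was −0.72 ± 0.16 (SE) in the mean of both clones (adjusted p = 0.00394), but with WT replicate 2 left out it was −0.35 and not called (adjusted p = 0.174), nor was it then called in either clone (adjusted p = 0.188 and 0.241). With all libraries it was −0.73 in clone 1 (adjusted p = 0.00978) and −0.71 in clone 2 (adjusted p = 0.0139), the value in clone 2 not being called without its replicate 2 (−0.56, adjusted p = 0.129). Mfap5, which encodes a small glycoprotein of microfibrils (ENSMUSG00000030116, chromosome 6, 122505845 to 122529290, plus strand), was at 13.0 and 13.9 CPM in clone 1, with 9.33 and 12.1 CPM in clone 2, against 16.8 and 19.0 CPM in WT. All 4 knockout libraries were below both WT libraries, with clone 2 lowest. Its log2 fold change was −0.67 ± 0.16 (adjusted p = 0.00607), at −0.50 in clone 1, where it was not called (adjusted p = 0.0515), and at −0.83 in clone 2 (adjusted p = 0.00539). The call in clone 2 was lost without its replicate 1 (−0.66, adjusted p = 0.0855), and clone 1 was called in 4 of the 16 alternatives, one of them without WT replicate 1 (−0.56, adjusted p = 0.0257).

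The fibulin genes moved apart. Fbln5, whose product tethers tropoelastin to microfibrils and binds integrins (ENSMUSG00000021186, chromosome 12, 101746565 to 101819055, minus strand), was at 156 and 165 CPM in clone 1, with 129 and 123 CPM in clone 2, against 214 and 256 CPM in WT. The groups did not overlap, and both libraries of clone 2 were below both of clone 1. The log2 fold change was −0.81 ± 0.11 (adjusted p = 7.54e-05), the largest fall among the members tested, at −0.63 in clone 1 and −0.99 in clone 2. All of these calls held under all 16 alternatives run. Efemp2, whose product fibulin-4 is needed for elastic fibre assembly in mice (ENSMUSG00000024909, chromosome 19, 5473954 to 5482517, plus strand), was at 552 and 540 CPM in clone 1, with 467 and 529 CPM in clone 2, against 363 and 356 CPM in WT. The WT libraries were nearly equal and all knockout libraries stood above them. Efemp2 rose by 0.46 ± 0.11 on the log2 scale (adjusted p = 0.00749), by 0.52 in clone 1 (adjusted p = 0.00780) and by 0.39 in clone 2 (adjusted p = 0.0400). The call in the knockout mean was lost without clone 2 replicate 2 (0.40, adjusted p = 0.0580), that in clone 1 was lost without clone 1 replicate 1 (0.50, adjusted p = 0.0565), and that in clone 2 was lost in 6 of the 16 alternatives (0.28 to 0.47, adjusted p = 0.0698 to 0.361), including each fit without 1 library except that without WT replicate 1.

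The balance of the fibulin transcripts can be read within each library, where scaling to the total cancels. Per kilobase of exon there were 6.46 and 5.97 Efemp2 counts for each Fbln5 count in clone 1 and 6.62 and 7.86 in clone 2, against 3.09 and 2.54 in WT. The lowest knockout ratio was thus above the highest WT ratio. With 4 libraries against 2 no test was run on this ratio, which was formed after the directions of its genes were seen.

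Among the lysyl oxidases, Lox rose while Loxl1 and Loxl3 fell. Lox, the founding enzyme of the family (ENSMUSG00000024529, chromosome 18, 52516067 to 52529867, minus strand), was at 251 and 372 CPM in clone 1, with 364 and 367 CPM in clone 2, against 153 and 246 CPM in WT. The lowest knockout library, clone 1 replicate 1, was only slightly above WT replicate 2, and replicates differed by 1.48-fold in clone 1 and by 1.61-fold in WT. The log2 fold change was 0.67 ± 0.18 in the knockout mean (adjusted p = 0.00950), 0.56 in clone 1 (adjusted p = 0.0453) and 0.79 in clone 2 (adjusted p = 0.0100). In the mean it was 0.39 without WT replicate 1, 1.05 without WT replicate 2 and 0.41 with an offset for GC content and length, and it was called in each. The call in clone 1 was lost in 7 of the 16 alternatives, at 0.26 to 0.56 (adjusted p = 0.0511 to 0.455), among them the fits without WT replicate 1, without replicate 2 of clone 1 and without either library of clone 2.

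Loxl1, the family member tied to elastic fibre upkeep in mice (ENSMUSG00000032334, chromosome 9, 58287738 to 58313186, minus strand), was at 243 and 229 CPM in clone 1, with 251 and 287 CPM in clone 2, against 387 and 390 CPM in WT. The WT libraries were almost equal, and every knockout library was well below them. The log2 fold change was −0.70 ± 0.11 (adjusted p = 2.58e-04), at −0.79 in clone 1 and −0.61 in clone 2, and it came to −0.44, still called, with the GC and length offset (adjusted p = 0.00231). In clone 2 the call was lost without its replicate 1 (−0.52, adjusted p = 0.0844). Loxl3, another lysyl oxidase with scavenger receptor domains (ENSMUSG00000000693, chromosome 6, 83034173 to 83052562, plus strand), was at 123 and 111 CPM in clone 1, with 110 and 120 CPM in clone 2, against 143 and 139 CPM in WT. This was the smallest change of the 7, with a narrow gap between the groups. The log2 fold change was −0.36 ± 0.11 (adjusted p = 0.0229), at −0.34 in clone 1 (not called, adjusted p = 0.0589) and −0.37 in clone 2 (adjusted p = 0.0437). Its call in the mean was lost in 5 of the 16 alternatives, at −0.33 to −0.23 (adjusted p = 0.0536 to 0.0998): the fits that left out WT replicate 1, replicate 2 of clone 1 or replicate 1 of clone 2, the fit with no low-count filter, and the one with the GC and length offset. In clone 2 it was lost in 9, including each fit without 1 library except that without WT replicate 2.

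Loxl3 overlaps Htra2 on the opposite strand, and that strand gave 23.0% to 29.8% of the reads at Loxl3 in knockout libraries and 26.6% to 30.3% in WT. The counts used here are strand-specific and leave these reads out. Efemp2 likewise overlaps Mus81 on the opposite strand. There the share of reads was 0.193% to 0.269% in knockout libraries and 0.271% to 0.354% in WT. Scaled to library totals, that strand spanned 1.07 to 1.29 CPM over the knockouts and 0.967 to 1.29 CPM over WT, so the groups overlapped.

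**Figure D3:**
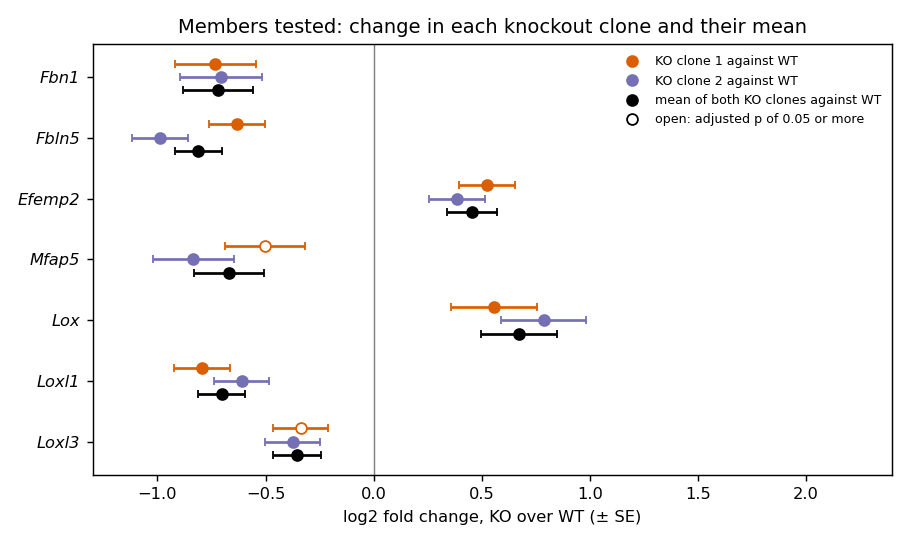
Log2 fold change of the 7 members tested in KO clone 1, KO clone 2 and their mean, each over WT, with its SE; filled points have an adjusted p below 0.05. Efemp2 and Lox lie right of 0 and the other 5 left of it in both clones, and the open points are Mfap5 and Loxl3 in clone 1.

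Loxl4, the fifth member of the family and outside the 10 genes, fell much further than any of them. It was at 1.17 and 1.23 CPM in clone 1, with 0.693 and 0.795 CPM in clone 2, against 20.1 and 20.5 CPM in WT, a log2 fold change of −4.49 ± 0.19 (adjusted p = 1.96e-09). The make-up of the family also differed. As a share of the family's CPM per kb, Lox made up 34.2% and 45.3% in clone 1 and 43.1% and 40.4% in clone 2, against 17.3% and 25.1% in WT. Loxl1 made up 48.1% and 40.4% in clone 1 and 43.2% and 45.8% in clone 2, against 63.4% and 57.8% in WT. Lox thus took a larger share and Loxl1 a smaller one in each knockout library than in either WT library. Loxl3 kept a like share, 13.6% to 17.5% in the knockouts and 14.7% to 16.8% in WT, and Loxl4 went to at most 0.181% in the knockouts, against 2.58% and 2.38% in WT. The family's summed level was 153 to 190 CPM per kb in the knockouts and 185 and 205 CPM per kb in WT, so the sums of the groups overlapped.

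**Figure D4:**
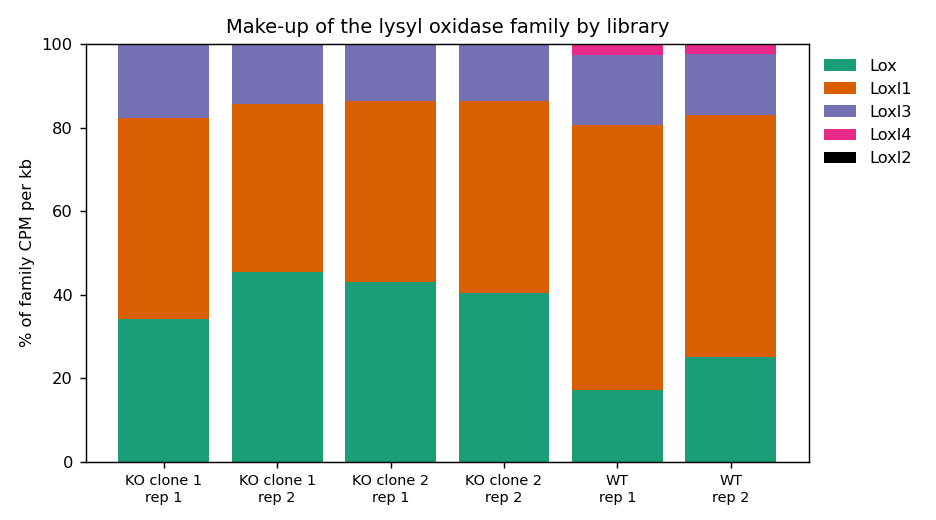
Share of each lysyl oxidase gene in the family's summed CPM per kb of exon, 1 bar for each library, with the knockout clones left and WT right. Lox takes 34.2% to 45.3% of the sum in the knockout libraries, against 17.3% and 25.1% in WT, and Loxl4 is visible only in WT.

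No difference between the clones passed the test for these genes. Clone 1 had 2 members higher and 3 lower than WT, where 31.7% of all genes were called, 15.2% higher and 16.5% lower. Clone 2 had 2 members higher and 5 lower, where 27.4% of all genes were called, 12.9% higher and 14.5% lower. Both comparisons share the WT libraries. In clone 2 against clone 1, which do not share libraries, 0 of the 7 members were called by edgeR, DESeq2 or limma-voom, and 1 had an unadjusted p under 0.05 by edgeR, where 3.54% of all genes were called, 1.18% higher and 2.36% lower. That gene was Fbln5, named after its values were seen, at −0.36 ± 0.13 on the log2 scale (adjusted p = 0.165). It was called in 3 of the 16 alternatives, at −0.38 to −0.36 (adjusted p = 0.0347 to 0.0485). The other log2 differences between clones ran from −0.33 ± 0.18 for Mfap5 to 0.23 ± 0.20 for Lox. The smooth muscle markers, by contrast, were lower in clone 2 for all 4 that were tested, and Acta2, the smooth muscle actin gene, was at 158 and 168 CPM in clone 2, against 1028 and 1066 CPM in clone 1.

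Genes that build or trim the same fibres were taken from 3 lists. Of the 21 assembly partners, 14 were tested in the knockout mean, 2 rose and 6 fell, with a median log2 fold change of −0.43, where 16.6% of all genes tested were higher and 18.2% lower. Emilin1, an elastic fibre glycoprotein, rose by 0.94 ± 0.12 (adjusted p = 4.29e-05), at 161 and 165 CPM in clone 1, with 127 and 129 CPM in clone 2, against 63.8 and 77.3 CPM in WT. Both clones were clearly above WT. Ltbp4, which encodes a TGF-beta binding protein that aids fibulin-5 deposition, fell, with a log2 fold change of −0.91 ± 0.16 (adjusted p = 8.92e-04), and the microfibril-binding protease genes Adamts6 and Adamts10 fell, with a log2 fold change of −0.87 ± 0.19 and −0.64 ± 0.15 (adjusted p = 0.00265 and 0.00454). Furin, the protease that cuts profibrillin, fell, with a log2 fold change of −0.46 ± 0.12 (adjusted p = 0.00766). Emilin2 also fell in the knockout mean, at −0.44 ± 0.12 (adjusted p = 0.00969). By edgeR, Emilin2 was lower in clone 2 (−0.77, adjusted p = 0.00120) but was not called in clone 1 (−0.12, adjusted p = 0.531). The call for Adamts6 depended on WT replicate 2, at −0.47 when it was left out (adjusted p = 0.211), and was also lost when both clones were fitted as 1 group (−0.79, adjusted p = 0.0583). Adamts10 was still called with the GC and length offset, at −0.38 (adjusted p = 0.0401). Furin was no longer called when WT replicate 1 was left out (−0.32, adjusted p = 0.0646) and with the offset for GC content and length (−0.30, adjusted p = 0.0603). For Emilin2 the call went when WT replicate 2 was left out (−0.28, adjusted p = 0.130), with that offset (−0.26, adjusted p = 0.0656), and with both clones as 1 group (−0.41, adjusted p = 0.166).

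In the same list, Efemp1, Emilin2 and Ltbp2 differed between the clones, and Ltbp2 and Efemp1 are given here. Ltbp2, which encodes a microfibril-associated relative of the fibrillins, was at 290 and 304 CPM in clone 1, with 102 and 118 CPM in clone 2, against 93.5 and 121 CPM in WT. Only the clone 1 libraries were high, the clone 2 range lay within that of WT, and the clones differed by −1.44 ± 0.14 on the log2 scale (clone 2 over clone 1, adjusted p = 2.66e-05). In the knockout mean Ltbp2 rose by 0.66 ± 0.13 (adjusted p = 0.00134), a call lost when both clones were fitted as 1 group, where the value was 0.84 (adjusted p = 0.155). Efemp1, the fibulin-3 gene, was at 108 and 129 CPM in clone 1, with 234 and 222 CPM in clone 2, against 193 and 312 CPM in WT. Here clone 1 was low and the range of clone 2 lay within that of WT. The clones differed by 0.94 ± 0.18 (clone 2 over clone 1, adjusted p = 0.00737). The fall of Efemp1 in the mean (−0.71 ± 0.15, adjusted p = 0.00257) was lost when WT replicate 2 was left out (−0.32, adjusted p = 0.0654) and with both clones as 1 group (−0.63, adjusted p = 0.129). Not tested for low counts were Mfap2, Mfap4, Fbln1, Fbln7, Emilin3, Adamtsl2 and Thsd4.

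**Figure D5:**
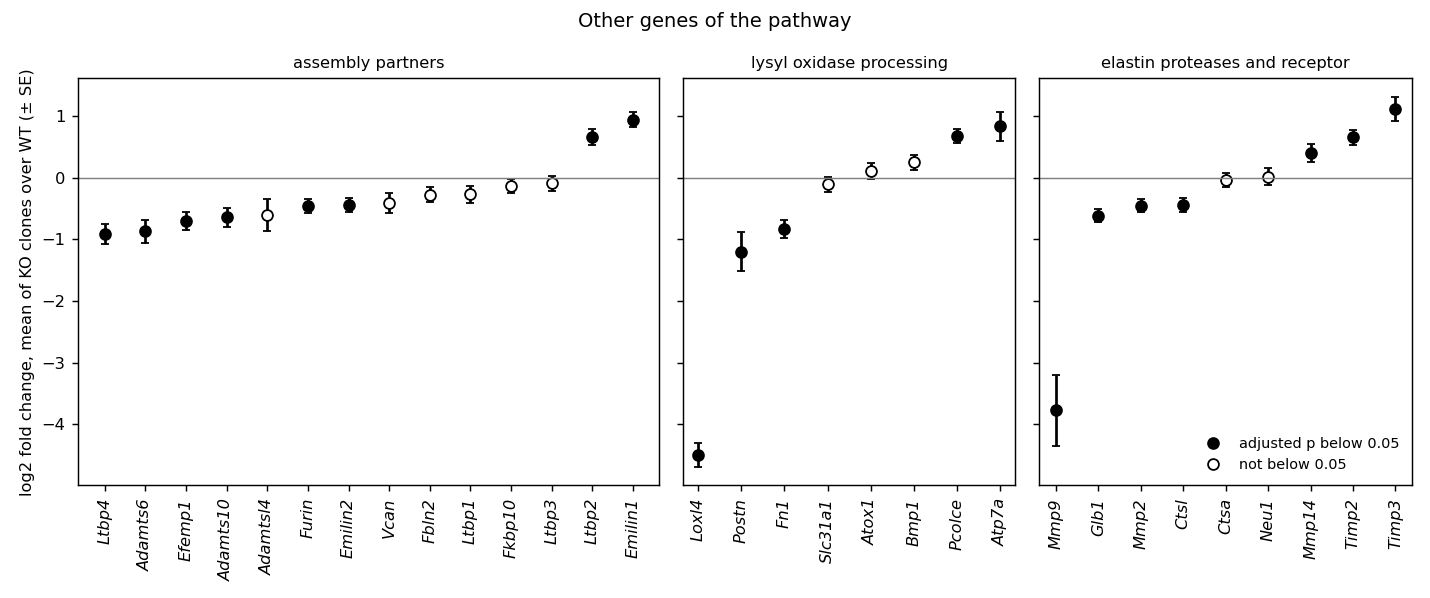
Log2 fold change, mean of both knockout clones over WT, with its SE for the tested genes of the 3 pathway lists, ordered by value within each list; filled points have an adjusted p below 0.05. Loxl4 (−4.49) and Mmp9 stand far below the rest, and Emilin1, Ltbp2, Pcolce, Atp7a, Mmp14, Timp2 and Timp3 are the genes called higher.

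Of 10 genes for lysyl oxidase relatives, processing, copper supply and scaffolding, 8 were tested, 2 rose and 3 fell, with a median of 0.001, beside the same 16.6% and 18.2% of all genes. The copper pump gene Atp7a, which loads secreted enzymes with copper, rose by 0.84 ± 0.23 (adjusted p = 0.0139), at 8.44 and 14.2 CPM in clone 1, with 13.9 and 14.1 CPM in clone 2, against 5.42 and 7.30 CPM in WT. Pcolce, which encodes an enhancer of procollagen processing, rose by 0.68 ± 0.12 (adjusted p = 7.90e-04). Fn1, whose fibronectin product is a scaffold for fibrillin and Lox processing, fell, with a log2 fold change of −0.83 ± 0.15 (adjusted p = 7.17e-04), at 586 and 570 CPM in clone 1, with 390 and 378 CPM in clone 2, against 614 and 971 CPM in WT. The WT libraries were far apart and the lower one was close to clone 1. Without WT replicate 2 the Fn1 value was −0.47, and it was still called (adjusted p = 0.00332). Postn, the periostin gene, fell, with a log2 fold change of −1.20 ± 0.32 (adjusted p = 0.0103), a call lost without WT replicate 2 (−0.43, adjusted p = 0.537) and after thinning to equal depth (−0.97, adjusted p = 0.0574). Bmp1, the protease gene that activates pro-Lox, was at 91.5 and 80.3 CPM in clone 1, with 81.7 and 92.1 CPM in clone 2, against 63.8 and 73.3 CPM in WT, and did not pass the test (0.25 ± 0.12, adjusted p = 0.128).

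Of 14 genes for elastin-degrading proteases, their inhibitors and the elastin receptor, 9 were tested, 3 rose and 4 fell, with a median of −0.04, again beside 16.6% higher and 18.2% lower among all genes. The inhibitor genes Timp3 and Timp2 rose by 1.11 ± 0.20 and 0.66 ± 0.12 (adjusted p = 8.01e-04 and 0.00103). Timp3 was at 79.1 and 108 CPM in clone 1, with 124 and 98.3 CPM in clone 2, against 30.2 and 56.0 CPM in WT, so that replicates varied but groups did not overlap. The gelatinase gene Mmp2 fell, with a log2 fold change of −0.45 ± 0.11 (adjusted p = 0.00494), the cathepsin gene Ctsl to −0.44 ± 0.11 (adjusted p = 0.00845), and Glb1, whose locus also encodes the elastin-binding protein, to −0.61 ± 0.11 (adjusted p = 6.40e-04). With the GC and length offset Mmp2 was at −0.29 (adjusted p = 0.0161) and Ctsl at −0.73 (adjusted p = 8.99e-04), both still called. Mmp9, the second gelatinase gene, had 4 counts in clone 1 and 2 in clone 2, against 19 in WT, and was called lower (adjusted p = 2.24e-04). The collagenase gene Mmp14 rose by 0.41 ± 0.15 (adjusted p = 0.0451), a call lost in 7 of the 16 alternatives at 0.21 to 0.44 (adjusted p = 0.0525 to 0.339), including those without WT replicate 1, clone 1 replicate 2 and either clone 2 library. Without WT replicate 2 Mmp14 was at 0.73 (adjusted p = 9.69e-04). Of the 20 genes called over the 3 lists, 13 kept their call under every alternative in which they were tested. Mmp9, 1 of these 13, was tested in only 14 of the 16 alternatives.

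For the members with the largest rise and the largest fall, the genes with the most similar profile were sought among 8824 protein-coding genes. Likeness was the root mean square difference of gene-centred log2 CPM over the 6 libraries, the same for every gene, so it is a description. Lox was closest to Matr3, a nuclear RNA-binding protein gene, at 0.034 log2 units, then to Spag9, a kinase scaffold gene, at 0.037, and to Sbno1 at 0.047. Like Lox, these genes were lowest in WT replicate 1 and lower in clone 1 replicate 1 than in the other knockout libraries, as Matr3 showed with 53.1 and 81.1 CPM in clone 1, with 75.6 and 78.5 CPM in clone 2, against 32.3 and 49.5 CPM in WT. Fbln5 was closest to Nmnat2, a gene of NAD synthesis, at 0.049, to Clic4, an intracellular channel gene, at 0.054, and to Parp8 at 0.060. Clic4 was at 169 and 178.4 CPM in clone 1, with 131 and 127 CPM in clone 2, against 208 and 266 CPM in WT, the same order of groups as Fbln5. None of these 6 neighbours was a member.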

How the data were processed

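Strand-specific, ribosomal RNA-depleted total RNA libraries were made from 3 groups of 2, per the labels' protocols. Reads were viewed with FastQC and aligned with STAR 2.6.0c to GRCm38, per the submitters' processing notes. The deposited values are raw STAR gene counts for Ensembl identifiers, 1 column per strand setting, of which the reverse-strand column was used. No source used here gives the authors' annotation release. Rows naming no gene held 46.6% to 50.5% of reads and stayed out of library sizes. Symbols, positions and exon lengths came from GENCODE M21 (54079 of 54146 identifiers matched).

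Tests used edgeR 4.0.16 in R 4.3.3 on all 6 libraries: filterByExpr (minimum count 10), TMM factors (0.951 to 1.03), 1 coefficient per group, quasi-likelihood test, Benjamini-Hochberg adjustment over 13120 genes, calls below 0.05. SE is the log2 fold change over the root of the F statistic. CPM was scaled to library totals. The steps were run on simulated counts with the same changes against WT in both clones. Recovery of a difference between clones was therefore not checked. A floor of 3 counts came to between 0.152 and 0.775 CPM per library, for counting error only. Alternatives used DESeq2 1.42.0 and limma 3.58.1, among others. Replicates differed by more than sampling noise (chi-square per degree of freedom 12.5 to 20.1).

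The members and lists were chosen with earlier results of these data known. Named genes were the 10 members, Mki67, called genes of the 3 pathway lists and the nearest profiles of the members with the largest rise and fall (average log2 CPM of at least 3). Bmp1 and the cell type markers named were added to these.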

Additional observations from a re-analysis of the deposited data

Results flagged for a closer look

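The log2 differences between the clones that passed edgeR's quasi-likelihood test among the genes of the lists are given as clone 2 over clone 1. Of the assembly partners, Efemp1 differed by 0.94 (adjusted p = 0.00737), Emilin2 by −0.65 (adjusted p = 0.0150) and Ltbp2 by −1.44 (adjusted p = 2.66e-05). Emilin2 was at 93.4 and 95.9 CPM in clone 2, against 155 and 140 CPM in clone 1. Of the cell type markers, Thy1 differed by −0.53 (adjusted p = 0.0248), Acta2 by −2.69 (adjusted p = 1.84e-07), Tagln by −4.00 (adjusted p = 1.61e-06), Des by −0.90 (adjusted p = 0.00522) and Actg2 by −2.77 (adjusted p = 4.07e-07). Each knockout group is 1 clone, so a difference between clones cannot be told apart from one between lines of any kind. For Efemp1 the call was lost when replicate 1 of clone 1 was left out (0.82, adjusted p = 0.122), and likewise replicate 1 of clone 2 (0.90, adjusted p = 0.0606). Emilin2 lost it without clone 1 replicate 1, clone 2 replicate 1 or clone 2 replicate 2, at −0.67 to −0.57 (adjusted p = 0.162 to 0.180).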

How the results depend on the processing

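The members called numbered 6 or 7 in the knockout mean under every alternative run, and 4 to 6 in clone 1. In clone 2 they numbered 3 to 6 with 1 library left out, with 3 without clone 2 replicate 1 and 4 without clone 2 replicate 2, and 5 to 7 otherwise. Between the clones 1 member, Fbln5, was called in a fit of only the groups compared, with the offset for GC content and length (1), and in 1 of the fits that left out a library (0 to 1). Without 1 library, genes called ranged from 3359 to 4449 in the mean, 2205 to 4348 in clone 1 (2205 without clone 1 replicate 2), 1669 to 4010 in clone 2 (1669 and 2083 without its replicates 1 and 2) and 156 to 1208 between clones, where 465 were called with all, at most 247 without any one knockout library and at least 1202 without either WT library. Between clones, 813 genes were called without a low-count filter, 219 after thinning to the shallowest library and 884 with the offset; the cause was not tested. No fold change in a knockout contrast with WT changed sign. Between clones, Fbn1 (0.03 with all libraries) was at −0.0059 without a low-count filter, and with 1 library left out Fbn1 ranged from −0.16 to 0.17, Lox (0.23) from −0.029 to 0.52 and Loxl3 (−0.04) from −0.12 to 0.041, none of them called. With the replicate block, 4874, 4447, 3955 and 634 genes were called in the mean, clone 1, clone 2 and between clones, and 7, 5, 7 and 0 members. The labels do not say whether replicate numbers pair the libraries. Same-numbered deviations correlated at 0.27 for clone 1 with WT, −0.09 for clone 2 with WT and −0.11 between clones. With 1 such value for each pair of groups, these do not settle it. Depth was lowest in WT replicate 1.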
